A study of Arabidopsis thaliana with 24 samples.

Results

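Plastid fatty acid synthesis, with the enzymes and carriers that bring carbon to it, is described here through 44 nuclear genes among the 27827 loci measured in Arabidopsis seeds. The genes were chosen by locus for their place in the pathway, with earlier results of these data known, and no measured value enters the choice rule. They comprise plastid pyruvate kinase with its carbon carriers (6 genes), the plastid pyruvate dehydrogenase (7), lipoate enzymes (2), acetyl-CoA carboxylase (4), its BADC inhibitors (3), acyl carrier proteins (5), fatty acid synthase (8), stearoyl-ACP desaturases (3), thioesterases (3), and export with long-chain acyl-CoA synthetases (3). All 44 were found in the table, and none shared its values with another locus.

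The seeds came from Col-0, the reference ecotype, and carried no mutation or treatment. They were taken at 12, 15, 18 and 20 days after pollination (DAP), and total RNA and polysomal RNA, the RNA that sits on several ribosomes, were each put on arrays at every stage, so that the groups were total RNA at 12, 15, 18 and 20 DAP and polysomal RNA at 12, 15, 18 and 20 DAP. Each of the 8 groups held 3 biological replicates, 24 arrays in all, and each replicate was a bulk of plants from a blocked planting. Seeds were taken whole, with embryo, endosperm and seed coat together, so that fewer cells of a type and less RNA per cell cannot be told apart.

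Seed oil is built from fatty acids made in the plastid. Phosphoenolpyruvate and hexose phosphates enter the plastid through carriers, pyruvate kinase makes pyruvate, and pyruvate dehydrogenase makes acetyl-CoA, with lipoate as the cofactor of its E2 subunit. Acetyl-CoA carboxylase makes malonyl-CoA, the fatty acid synthase enzymes extend the chain while it is held on an acyl carrier protein (ACP), a desaturase puts in the first double bond, thioesterases release the acid, and an exporter with acyl-CoA synthetases passes it to the cytosol. In developing Arabidopsis seeds the transcription factor WRI1 is known to drive many of these genes.

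Values are log2 levels, 1 probe set per locus, and differences are log2 differences with their standard error (SE), each group mean resting on 3 arrays. The 6 arrays of 12 DAP differed from the 18 later ones: their values spread less over loci (SD 1.39 to 1.71 against 2.13 to 2.43), and their replicates correlated at 0.74 to 0.85 across loci, against 0.96 to 0.99. Comparisons with 12 DAP were therefore fitted with limma on the groups compared alone, and comparisons among later stages on the 18 later arrays. A gene is said to have risen, fallen or changed where limma's p, adjusted over all 27827 loci after Benjamini and Hochberg, was under 0.05. Seed storage and oil body markers of the embryo were high on every array, with mean log2 levels of 11.29 to 12.18.

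Most members were at their own highest level at the first stage. The mean level of a gene over its 3 arrays was highest at 12 DAP for 35 of the 44 genes in total RNA and for 37 of 44 in polysomal RNA. The map of all members by array shows this as red cells in the 12 DAP columns of most steps.

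**Figure D1:**
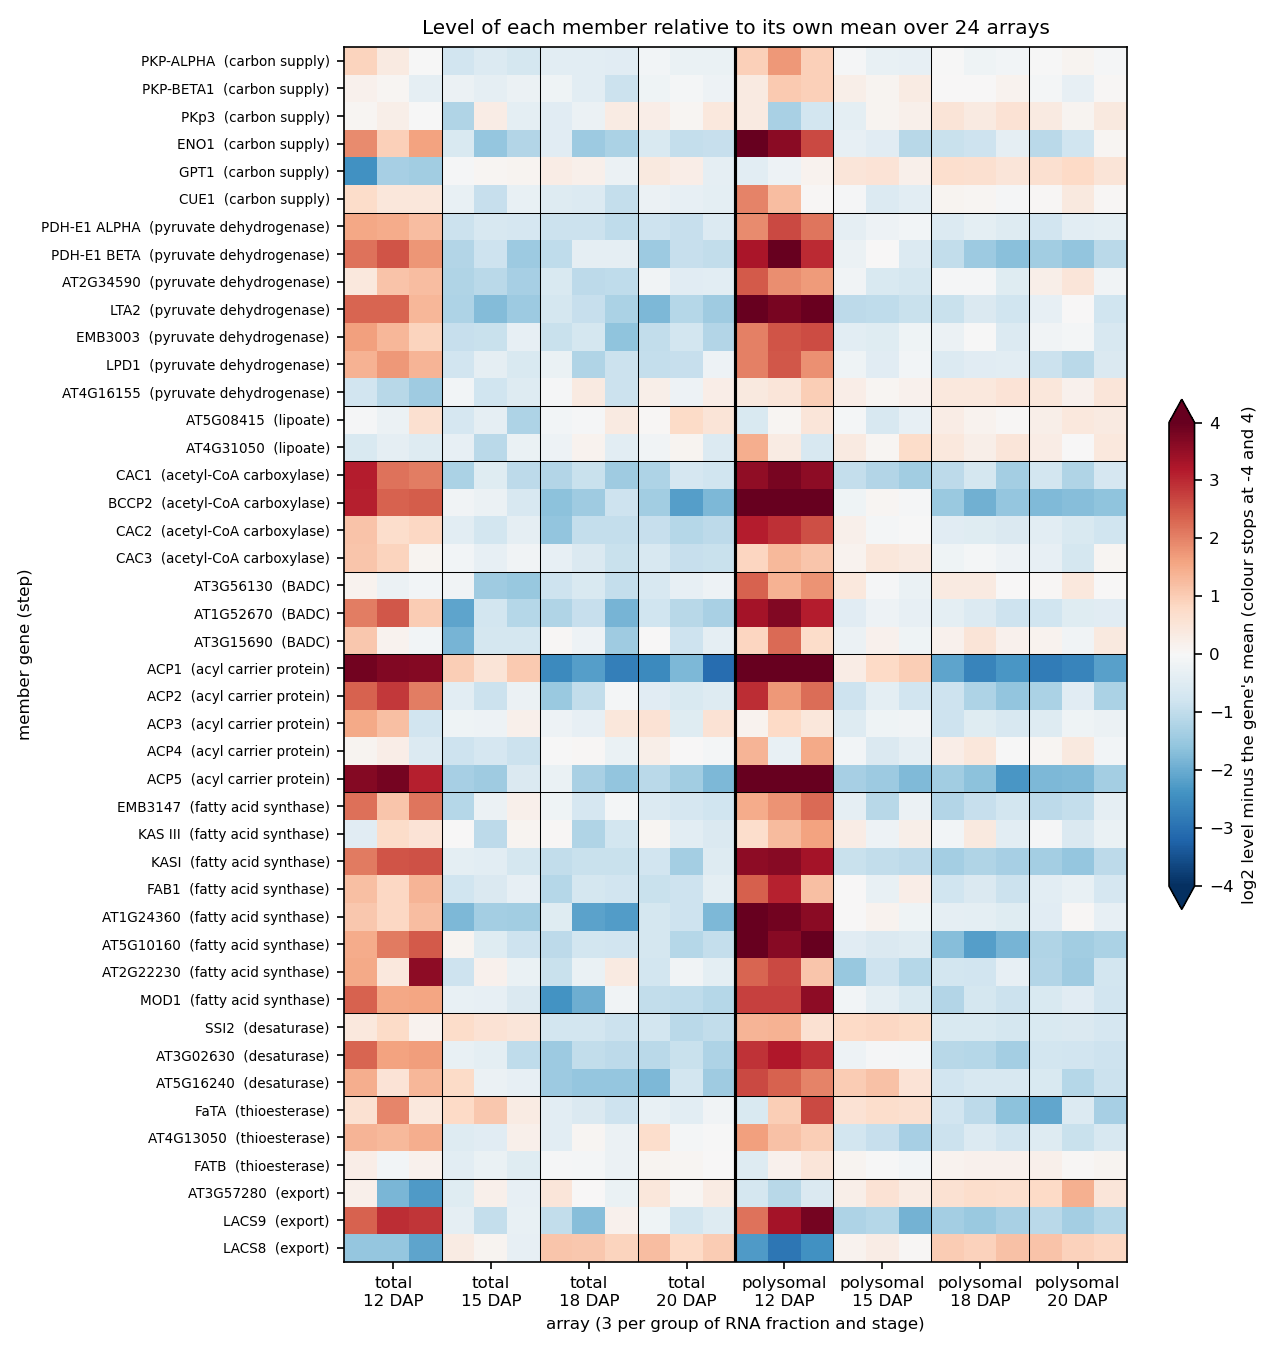
Log2 level of each of the 44 genes (rows, ordered by step) on each of the 24 arrays (columns, 3 per group of RNA fraction and stage) as the difference from the gene's own mean over the arrays, red above and blue below it. The stage mean is highest at 12 DAP for 35 genes in total RNA and 37 in polysomal RNA, a count not made over all loci. LACS8 and AT3G57280 are on average bluest at 12 DAP in both fractions, and GPT1 is clearly blue there in total RNA alone.

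From 12 to 15 DAP, 29 of 44 members changed in total RNA, where 39.9% of all loci did. Of these, 27 fell, against 19.4% of all loci lower, and 2 rose, against 20.5% higher. In polysomal RNA 34 members changed, where 68.8% of all loci did, with 32 lower against 39.4% and 2 higher against 29.4%. All 27 genes that fell in total RNA also fell in polysomal RNA, and they made up 84.4% of the 32 that fell there. This overlap was not counted over all loci. The median difference over the 44 members was -1.66 in total RNA and -2.31 in polysomal RNA, while the median over all loci was -0.32 and -0.51. The scaling of the arrays moved that background: among all loci called in total RNA, 5704 of 11111 were higher as deposited, 6764 of 10152 after median centring and 1839 of 4657 after cyclic loess. In polysomal RNA the same counts were 8190 of 19157 as deposited, 10096 of 15784 after median centring, 3145 of 5543 after a second quantile normalization and 2399 of 5487 after cyclic loess. The members' own fall kept its direction under each of these: 23 to 31 fell in total RNA and 27 to 38 in polysomal RNA.

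From 15 to 20 DAP fewer members changed. In total RNA 13 members changed, where 19.2% of all loci did, with 7 lower (7.7% of all loci) and 6 higher (11.5%). In polysomal RNA 12 changed, where 12.6% of all loci did, with 10 lower (5.4%) and 2 higher (7.18%). In both fractions the share of members called higher was near that of all loci. The fit to all 24 arrays left 2 higher and 4 lower in total RNA and 0 higher and 5 lower in polysomal RNA, and the polysomal count of 12 dropped to 7 without polysomal replicate 3 of 15 DAP or polysomal replicate 2 of 20 DAP. All 7 that fell in total RNA were among the 10 that fell in polysomal RNA, again an overlap not counted over all loci. The total RNA split depended on the scaling, with 6 higher and 4 lower after median centring and 5 higher and 9 lower after cyclic loess. In comparisons added after the data were seen, nearly as many members were already lower by 18 DAP, but fewer were higher in total RNA. From 15 to 18 DAP, 10 members changed in total RNA (13.4% of all loci), 7 lower (5.61%) and 3 higher (7.76%), and 11 in polysomal RNA (11.7%), 9 lower (5.08%) and 2 higher (6.57%). Between 18 and 20 DAP limma called 0 members in either fraction, with 0.00719% of all loci called in total RNA and 0% in polysomal RNA, although 2275 and 549 loci had an unadjusted p under 0.05. The comparisons from 12 to 15 DAP and from 15 to 20 DAP share the 15 DAP arrays, so each gene's values for both are set side by side below and are not correlated.

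**Figure D2:**
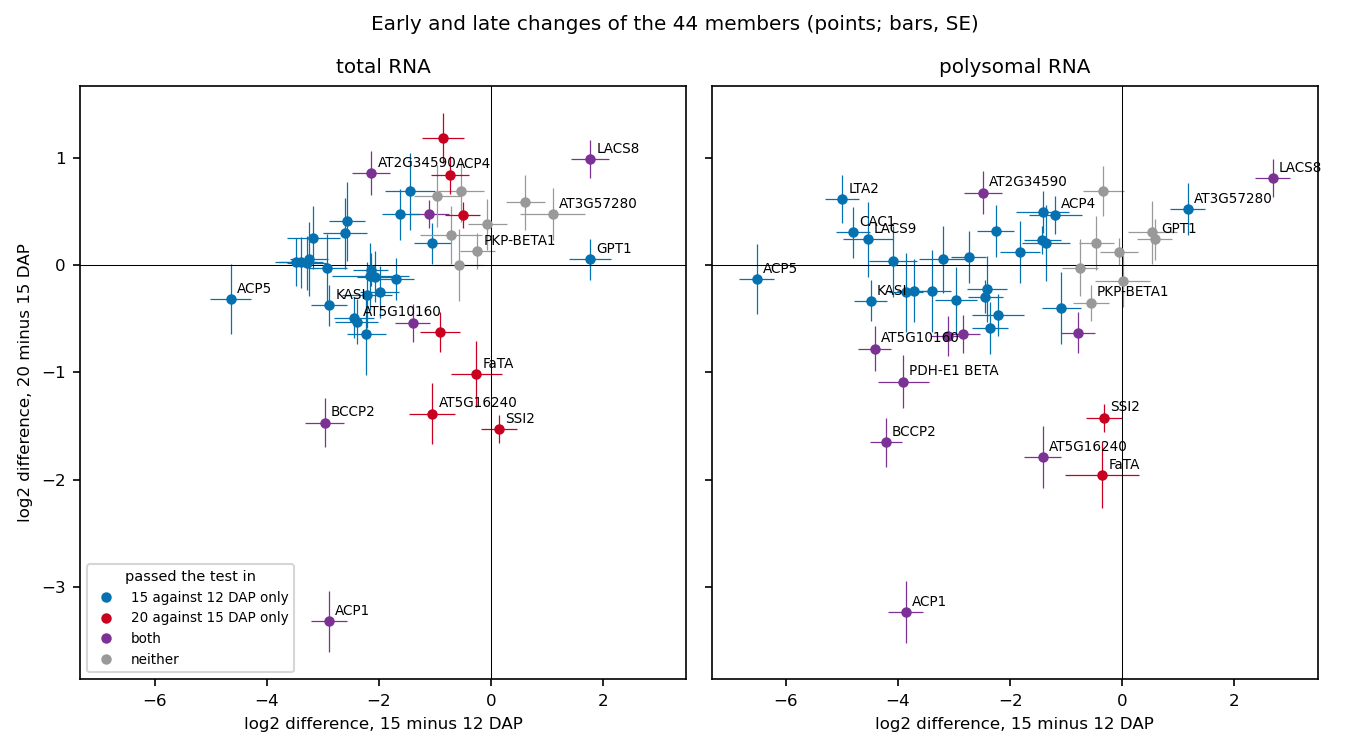
Log2 difference from 12 to 15 DAP (x axis) against that from 15 to 20 DAP (y axis) for each of the 44 genes, in total RNA (left) and polysomal RNA (right), with bars for the SE and colours for which differences passed. The 15 DAP arrays enter both axes; most genes lie left of 0 and near 0 on the y axis, ACP1 lies far below 0 on both axes, SSI2 and FaTA lie low on the y axis alone, and LACS8 lies above 0 on both.

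Carbon supply changed in part. Of its 6 genes 3 fell and 1 rose in total RNA from 12 to 15 DAP, where 19.4% of all loci fell and 20.5% rose. In polysomal RNA 3 fell, near the share of 39.4% of all loci. ENO1 (AT1G74030_at), the plastid enolase that makes phosphoenolpyruvate, was at 6.22, 5.29 and 5.95 at 12 DAP and at 3.72, 2.78 and 3.15 at 15 DAP in total RNA. In polysomal RNA it was at 8.45, 7.95 and 6.96 and then at 4.001, 3.88 and 3.22. The groups did not overlap in either fraction, and ENO1 fell by 2.60 ± 0.39 in total RNA (6.08-fold; limma adjusted p = 0.000739) and by 4.09 ± 0.43 in polysomal RNA (17.0-fold; limma adjusted p = 8.43e-05), with no call after 15 DAP.

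Plastid pyruvate kinase is built of alpha and beta subunits. PKP-ALPHA (AT3G22960_at) fell by 1.10 ± 0.34 in total RNA and by 1.43 ± 0.33 in polysomal RNA by 15 DAP, then rose by 0.48 ± 0.13 in total RNA by 20 DAP. The beta subunit gene PKP-BETA1 (AT5G52920_at), whose loss is known to lower seed oil, was at 8.64, 8.54 and 8.13 at 12 DAP and 8.25, 8.10 and 8.23 at 15 DAP in total RNA, and these ranges overlapped. Its differences were -0.24 ± 0.31 in total RNA and -0.56 ± 0.32 in polysomal RNA from 12 to 15 DAP, and 0.13 ± 0.17 and -0.35 ± 0.17 from 15 to 20 DAP, and none was called. The other beta subunit gene, PKp3 (AT1G32440_at), was not called either, at -0.53 ± 0.41 and 0.54 ± 0.44 from 12 to 15 DAP.

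The 2 carriers moved in opposite ways. CUE1 (AT5G33320_at), which brings phosphoenolpyruvate into the plastid in exchange for phosphate, was at 7.39, 7.10 and 7.11 at 12 DAP and 6.36, 5.74 and 6.35 at 15 DAP in total RNA, without overlap, and fell by 1.05 ± 0.33 (limma adjusted p = 0.0294). GPT1 (AT5G54800_at), which brings in glucose 6-phosphate, was at 5.48, 6.59 and 6.53 and then 7.88, 7.99 and 8.01, with every 15 DAP array above every 12 DAP array. It rose by 1.76 ± 0.38 in total RNA (3.39-fold; limma adjusted p = 0.00486), while the polysomal difference of 0.58 ± 0.31 was not called. After cyclic loess the GPT1 difference turned to -0.118 in total RNA, not called, and to -1.64 in polysomal RNA, called, so its direction depends on the scaling. The GPT1 level relative to CUE1 on the same arrays was 2.34 higher after 12 DAP, and is tested with the other pairs below.

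Pyruvate dehydrogenase fell nearly as a whole. Of its 7 genes 6 fell from 12 to 15 DAP in total RNA and the same 6 in polysomal RNA, where 19.4% and 39.4% of all loci fell. The median over the 7 was -2.13 and -2.49. LTA2 (AT3G25860_at), an E2 subunit that carries the lipoyl arm, was at 7.83, 7.83 and 6.83 at 12 DAP and 4.27, 3.76 and 4.04 at 15 DAP in total RNA. In polysomal RNA it was at 9.79, 9.31 and 9.47 and then 4.45, 4.49 and 4.62. No array of 15 DAP came near one of 12 DAP, and LTA2 fell by 3.47 ± 0.38 (11.1-fold; limma adjusted p = 0.000147) and 5.002 ± 0.30 (32.0-fold; limma adjusted p = 1.19e-05).

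The E1 beta genes PDH-E1 BETA (AT1G30120_at) and AT2G34590_at encode the same subunit and parted after 12 DAP. PDH-E1 BETA was at 5.36, 5.72 and 4.97 at 12 DAP, 2.04, 2.38 and 1.75 at 15 DAP and 1.73, 2.29 and 2.21 at 20 DAP in total RNA, low and flat after the first step. AT2G34590 was at 7.63, 8.35 and 8.43, 6.01, 6.12 and 5.88 and 7.05, 6.75 and 6.77 at the same stages, with all 20 DAP arrays above all 15 DAP arrays. From 12 to 15 DAP they fell by 3.29 ± 0.35 and 2.13 ± 0.34 in total RNA. From 15 to 20 DAP AT2G34590 rose by 0.85 ± 0.20 in total RNA and 0.68 ± 0.20 in polysomal RNA (limma adjusted p = 0.00767 and 0.0387), while PDH-E1 BETA fell by 1.08 ± 0.25 in polysomal RNA (limma adjusted p = 0.00853) and stood at 0.02 ± 0.25 in total RNA. PDH-E1 ALPHA (AT1G01090_at), the E1 partner of both, fell by 2.15 ± 0.31 and 2.44 ± 0.32 and the E2 gene EMB3003 (AT1G34430_at) by 1.98 ± 0.35 and 2.74 ± 0.31 in total and polysomal RNA, with no call later.

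E3, the dihydrolipoyl dehydrogenase that reoxidizes the lipoyl arm, also has 2 plastid genes. LPD1 (AT3G16950_at) was at 4.96, 5.31 and 4.94 at 12 DAP and 2.82, 3.22 and 2.96 at 15 DAP in total RNA and fell by 2.07 ± 0.32 (limma adjusted p = 0.000855) and, in polysomal RNA, by 2.36 ± 0.32. AT4G16155_at was at 4.96, 4.61 and 4.296 and then 5.62, 4.90 and 5.19 in total RNA, where every 15 DAP array but 1 lay above all those of 12 DAP. It was the 1 pyruvate dehydrogenase gene with no call at either step, with 0.61 ± 0.35 and -0.46 ± 0.31 from 12 to 15 DAP in total and polysomal RNA.

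**Figure D3:**
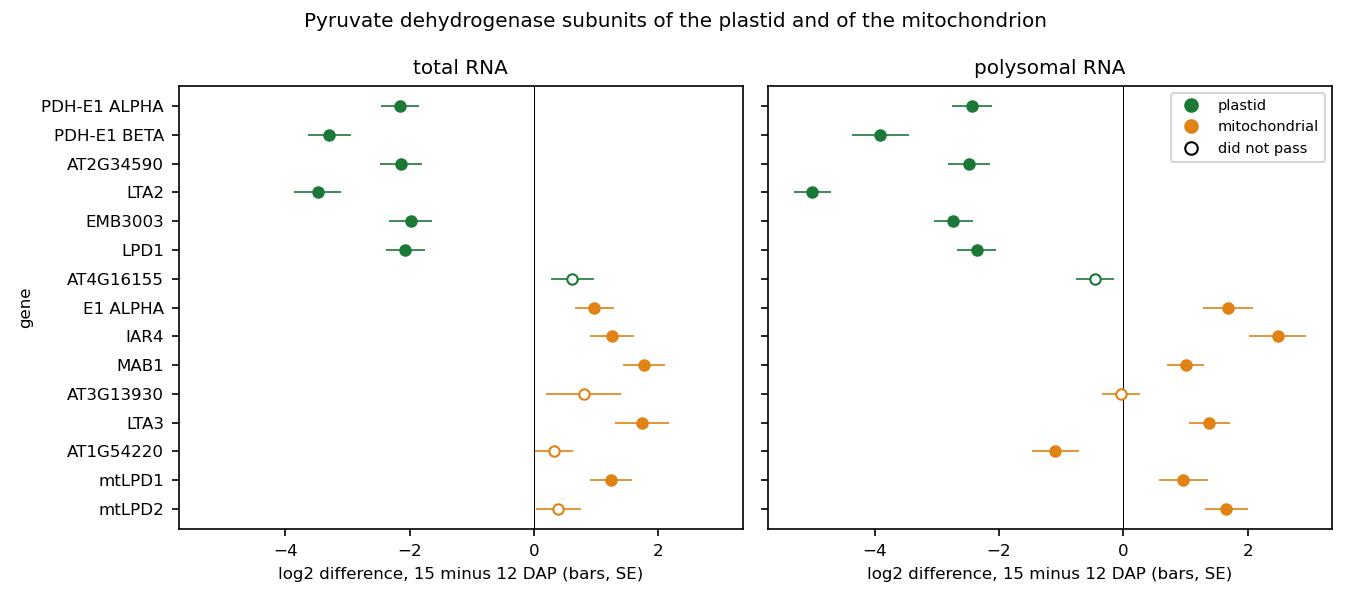
Log2 difference from 12 to 15 DAP with its SE for each gene of the plastid pyruvate dehydrogenase and of the mitochondrial one, in total and polysomal RNA. All 7 plastid genes but AT4G16155 lie below 0 with limma adjusted p under 0.05, and most mitochondrial genes lie above 0 as deposited, a direction that turned under cyclic loess.

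The mitochondrial complex of the same name was set beside the plastid one. From 12 to 15 DAP 5 of its 8 genes were called higher and 0 lower in total RNA, where 20.5% of all loci were higher, and 6 were called higher and 1 lower in polysomal RNA, where 29.4% were higher. MAB1, its E1 beta subunit, was at 5.68, 5.14 and 4.96 at 12 DAP and 7.17, 6.73 and 7.19 at 15 DAP in total RNA, without overlap, and rose by 1.77 ± 0.34 (limma adjusted p = 0.00295). Mitochondrial ACP and lipoate genes showed 3 of 6 higher in total RNA and 5 of 6 higher in polysomal RNA, with 0 lower. The calls of both mitochondrial lists depended on the scaling. After a second quantile normalization the mitochondrial pyruvate dehydrogenase list had 2 of 8 higher in total RNA and 0 higher with 1 lower in polysomal RNA, and after cyclic loess it had 0 higher in both fractions, 1 lower in total and 2 lower in polysomal RNA. The mitochondrial ACP and lipoate list had 1 of 6 higher in each fraction after the second quantile normalization, and after cyclic loess 1 higher in total RNA and 0 higher with 1 lower in polysomal RNA. In the plastid, neither lipoate gene changed from 12 to 15 DAP. AT5G08415_at, the lipoyl synthase, was at 4.78, 5.08 and 4.22 at 15 DAP and 5.48, 6.20 and 5.95 at 20 DAP in total RNA, without overlap, and rose by 1.18 ± 0.23 (limma adjusted p = 0.00212). The octanoyltransferase AT4G31050_at was at 1.65 to 2.88 on the 12 total RNA arrays and was not called between any stages.

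Acetyl-CoA carboxylase fell at both steps, and its subunits fell by different amounts. Of the 4 nuclear genes 3 fell in total RNA and 4 in polysomal RNA from 12 to 15 DAP, where 19.4% and 39.4% of all loci fell. From 15 to 20 DAP 3 fell in each fraction, where 7.7% of all loci fell in total RNA and 5.4% in polysomal RNA. CAC1 (AT5G16390_at), the biotin carboxyl carrier protein BCCP1, was at 8.15, 7.18 and 7.08 at 12 DAP, 3.76, 4.52 and 3.96 at 15 DAP and 3.78, 4.33 and 4.21 at 20 DAP in total RNA. It was at 8.55, 8.81 and 8.58, then 4.07, 3.83 and 3.64 and 4.29, 3.83 and 4.34, in polysomal RNA. The 12 DAP arrays stood alone and the later ones overlapped, and CAC1 fell by 3.39 ± 0.39 (10.5-fold; limma adjusted p = 0.000209) and 4.80 ± 0.30 (27.9-fold; limma adjusted p = 1.39e-05), with 0.03 ± 0.24 and 0.30 ± 0.24 afterwards.

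BCCP2 (AT5G15530_at), the second carrier protein, known for its high level in seeds, fell at both steps. It was at 8.01, 7.28 and 7.34 at 12 DAP, 4.77, 4.68 and 4.28 at 15 DAP, 3.27, 3.47 and 4.08 at 18 DAP and 3.51, 2.71 and 3.11 at 20 DAP in total RNA. In polysomal RNA it was at 9.10, 9.09 and 9.05, 4.74, 4.97 and 4.87, 3.43, 2.99 and 3.37 and 3.13, 3.20 and 3.28. The arrays of 12, 15 and 18 DAP formed separate bands in both fractions. It fell by 2.97 ± 0.35 and 4.22 ± 0.29 from 12 to 15 DAP, and by 1.47 ± 0.23 and 1.65 ± 0.23 from 15 to 20 DAP (limma adjusted p = 0.000384 and 0.000164).

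CAC2 (AT5G35360_at), the biotin carboxylase, fell by 1.40 ± 0.32 in total RNA and 2.84 ± 0.31 in polysomal RNA by 15 DAP, and by 0.54 ± 0.18 and 0.64 ± 0.18 from there to 20 DAP. CAC3 (AT2G38040_at), the alpha subunit of the carboxyltransferase, changed least early, with -0.91 ± 0.35 in total RNA, not called, and a fall of 0.78 ± 0.30 in polysomal RNA, and then fell by 0.62 ± 0.19 and 0.63 ± 0.19 by 20 DAP. The plastid-encoded beta subunit of the carboxyltransferase was not analysed here.

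The BADC proteins resemble the biotin carrier protein without its biotin site and hold the carboxylase down. From 12 to 15 DAP 2 of the 3 fell in total RNA and 3 in polysomal RNA, where 19.4% and 39.4% of all loci fell. Afterwards 0 were called in either fraction, where 19.2% and 12.6% of all loci changed from 15 to 20 DAP. AT1G52670_at (BADC2) was at 7.64, 8.09 and 6.61 at 12 DAP and 3.50, 4.87 and 4.46 at 15 DAP in total RNA, far apart, and fell by 3.17 ± 0.48 (8.98-fold; limma adjusted p = 0.000845) there and by 3.72 ± 0.31 in polysomal RNA. AT3G15690_at (BADC3) fell by 1.44 ± 0.45 and 1.36 ± 0.43, and AT3G56130_at (BADC1) by 1.83 ± 0.36 in polysomal RNA, with -0.96 ± 0.41 in total RNA not called.

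The 5 ACP genes, whose products carry the growing chain, followed 3 courses. ACP5 (AT5G27200_at) made the largest fall of all 44 members in both fractions. It was at 8.26, 8.43 and 7.70 at 12 DAP and 3.27, 3.17 and 4.02 at 15 DAP in total RNA, and at 9.81, 9.27 and 9.71 and 3.25, 3.15 and 2.82 in polysomal RNA. The stages lay far apart in each fraction, and ACP5 fell by 4.64 ± 0.37 (25-fold; limma adjusted p = 3.4e-05) and 6.52 ± 0.31 (91.9-fold; limma adjusted p = 5.81e-06), then stayed without a call. ACP2 (AT1G54580_at) fell by 2.92 ± 0.35 and 2.97 ± 0.37 and was not called afterwards.

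ACP1 (AT3G05020_at) fell at both steps. It was at 10.33, 10.16 and 10.13 at 12 DAP, 7.45, 6.99 and 7.50 at 15 DAP, 3.92, 4.27 and 3.72 at 18 DAP and 3.91, 4.67 and 3.41 at 20 DAP in total RNA. In polysomal RNA it was at 10.93, 11.14 and 10.97, 6.76, 7.24 and 7.45, 4.36, 3.83 and 4.12 and 3.67, 3.82 and 4.27. The arrays formed 3 bands, 12 DAP, 15 DAP, and 18 with 20 DAP together. ACP1 fell by 2.89 ± 0.32 and 3.87 ± 0.32 from 12 to 15 DAP (limma adjusted p = 0.000155 and 2.86e-05). From 15 to 20 DAP it fell by 3.32 ± 0.29 (9.96-fold; limma adjusted p = 1.63e-06) and 3.23 ± 0.29 (9.37-fold; limma adjusted p = 2.4e-06), the largest fall of any member at that step in either fraction.

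ACP4 (AT4G25050_at), known as the main leaf isoform, turned upward late. It was at 7.12, 7.30 and 6.47 at 12 DAP, 6.18, 6.34 and 6.16 at 15 DAP and 7.26, 7.02 and 6.93 at 20 DAP in total RNA, lowest at 15 DAP. It rose by 0.84 ± 0.18 from 15 to 20 DAP in total RNA (limma adjusted p = 0.00364), with 0.47 ± 0.18 in polysomal RNA not called, after -0.74 ± 0.34 in total RNA, not called, and a fall of 1.20 ± 0.47 in polysomal RNA before it. ACP3 (AT1G54630_at) was not called at either step in either fraction, with -0.71 ± 0.55 and -0.75 ± 0.32 from 12 to 15 DAP.

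**Figure D4:**
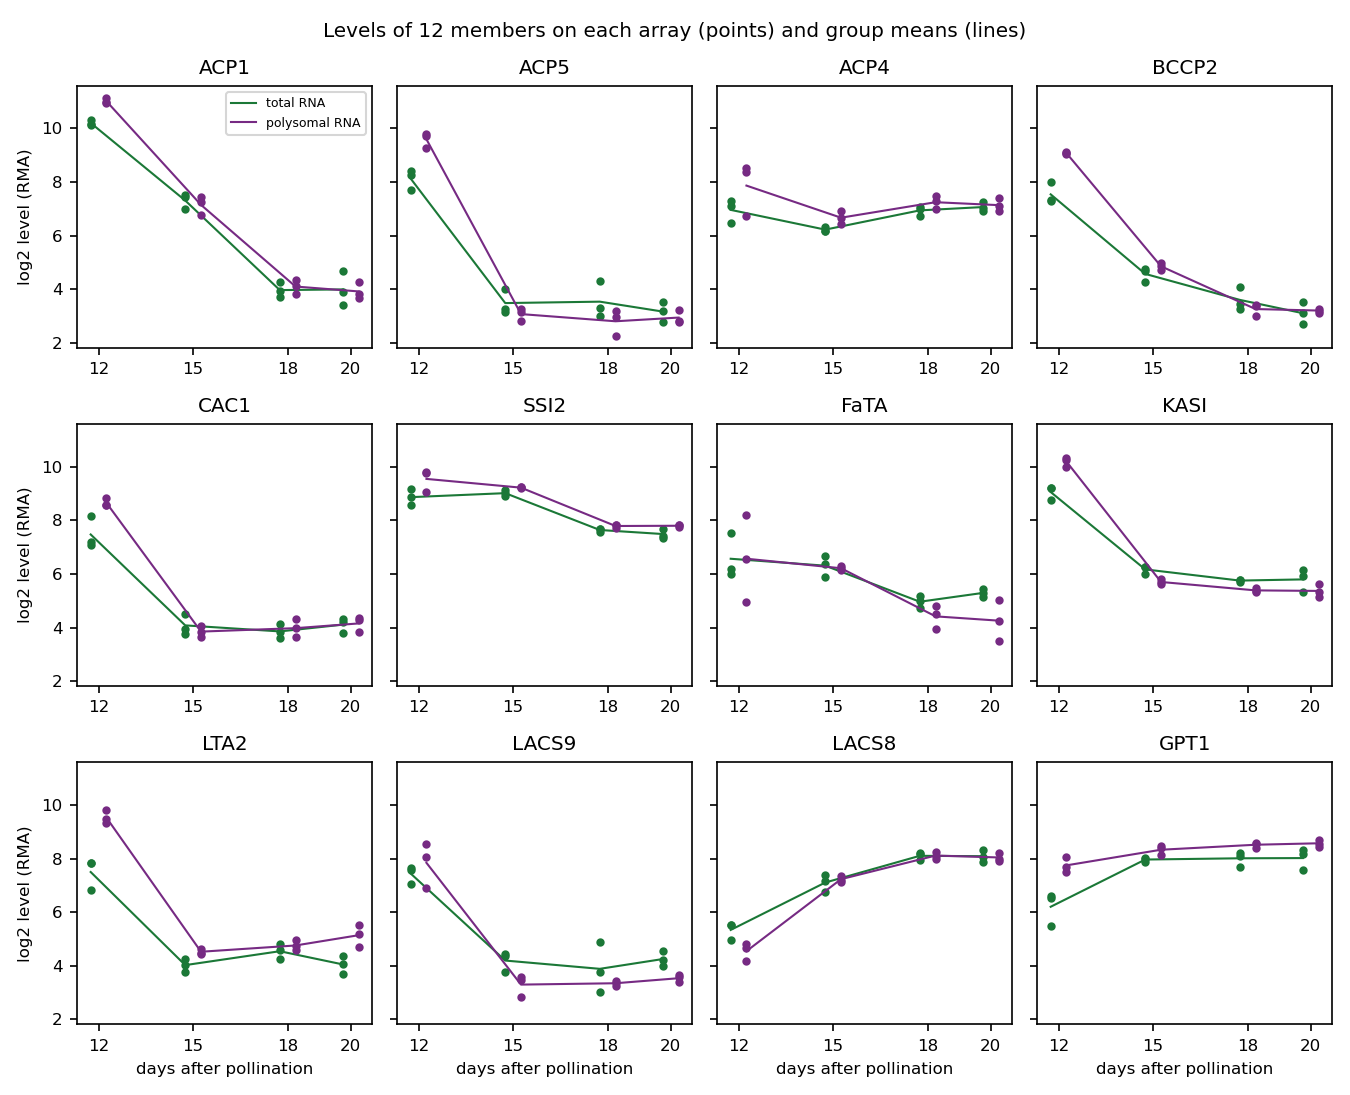
Log2 level on each array (points) and stage mean (line) against DAP for 12 members that followed different courses, in total (green) and polysomal (purple) RNA. ACP5 drops once and stays low, ACP1 and BCCP2 drop at both steps, SSI2 drops after 15 DAP alone, and LACS8 climbs.

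The fatty acid synthase enzymes fell early, with few calls afterwards. Of 8 genes 7 fell in total RNA and 8 in polysomal RNA from 12 to 15 DAP, where 19.4% and 39.4% of all loci fell. From 15 to 20 DAP 0 were called in total RNA, where 19.2% of all loci changed, and 1 fell in polysomal RNA, where 5.4% fell. From 15 to 18 DAP 0 were called in total RNA, and 2 fell in polysomal RNA, where 5.08% of all loci were lower. The lowest polysomal difference at that step was -1.42. KASI (AT5G46290_at), the condensing enzyme that extends the chain in its middle cycles, was at 8.75, 9.20 and 9.21 at 12 DAP and 6.27, 6.25 and 5.99 at 15 DAP in total RNA, and at 10.26, 10.31 and 10.002 and 5.80, 5.68 and 5.62 in polysomal RNA. Both gaps were wide against the spread of the replicates, and KASI fell by 2.89 ± 0.32 (7.39-fold; limma adjusted p = 0.000158) and 4.49 ± 0.29 (22.5-fold; limma adjusted p = 1.62e-05). FAB1 (AT1G74960_at), the KASII that makes the last extension, fell by 1.70 ± 0.32 and 2.22 ± 0.46. KAS III (AT1G62640_at), which starts the chain, was the 1 synthase gene not called in total RNA, at -0.58 ± 0.44, and fell by 1.09 ± 0.35 in polysomal RNA. EMB3147 (AT2G30200_at), the malonyltransferase that loads ACP, fell by 2.20 ± 0.45 and 2.41 ± 0.36.

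The reductases and dehydratases close each cycle. AT1G24360_at, the ketoacyl-ACP reductase, was at 6.17, 5.91 and 6.33 at 12 DAP and 3.28, 3.71 and 3.69 at 15 DAP in total RNA, and at 9.16, 8.95 and 8.69 and 5.09, 5.23 and 4.90 in polysomal RNA. The polysomal arrays stood above the total RNA arrays at both stages, and the gene fell by 2.57 ± 0.32 and 3.86 ± 0.30 between them. The dehydratase AT5G10160_at was at 5.68, 6.26 and 6.64 and 4.31, 3.72 and 3.36 in total RNA and at 8.28, 7.84 and 8.20 and 3.75, 3.63 and 3.69 in polysomal RNA. It was higher in polysomal than in total RNA at 12 DAP and within the total RNA range at 15 DAP, and fell by 2.40 ± 0.39 and 4.42 ± 0.30, then by a further 0.78 ± 0.21 in polysomal RNA from 15 to 20 DAP (limma adjusted p = 0.0213). The other dehydratase, AT2G22230_at, fell by 2.15 ± 0.69 and 3.19 ± 0.43, on total RNA arrays that disagreed at 12 DAP (4.95, 3.84 and 7.02), and MOD1 (AT2G05990_at), the enoyl-ACP reductase, fell by 2.22 ± 0.35 and 3.40 ± 0.35.

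Of the 3 stearoyl-ACP desaturases 1 fell in total RNA and 2 in polysomal RNA from 12 to 15 DAP, where 19.4% and 39.4% of all loci fell. From 15 to 20 DAP 2 and 3 fell, where 7.7% and 5.4% of all loci did. SSI2 (AT2G43710_at), the main stearoyl-ACP desaturase of the plant, was at 8.85, 9.17 and 8.57 at 12 DAP, 9.14, 9.01 and 8.89 at 15 DAP, 7.68, 7.68 and 7.56 at 18 DAP and 7.69, 7.35 and 7.42 at 20 DAP in total RNA. In polysomal RNA it was at 9.77, 9.82 and 9.04, 9.23, 9.24 and 9.19, 7.81, 7.82 and 7.73 and 7.82, 7.83 and 7.74. The 12 and 15 DAP arrays overlapped in both fractions and all lay above the 18 and 20 DAP arrays. The early differences were 0.15 ± 0.32 and -0.33 ± 0.33, not called, although cyclic loess gave -1.85 in total RNA with a limma adjusted p of 0.00299. From 15 to 20 DAP SSI2 fell by 1.53 ± 0.13 (2.88-fold; limma adjusted p = 1.34e-06) and 1.42 ± 0.13 (2.68-fold; limma adjusted p = 2.68e-06).

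AT5G16240_at, another desaturase of the family, was at 7.15, 6.88 and 6.49, 5.51, 5.68 and 5.06, 3.75, 3.88 and 3.88 and 3.89, 3.37 and 3.65 at the 4 stages in polysomal RNA, with 3 separate bands and 18 and 20 DAP overlapping. It fell by 1.42 ± 0.33 in polysomal RNA from 12 to 15 DAP, with -1.05 ± 0.41 in total RNA not called, and by 1.38 ± 0.29 and 1.78 ± 0.29 from 15 to 20 DAP (limma adjusted p = 0.00317 and 0.000606). AT3G02630_at fell mainly early, by 2.45 ± 0.36 and 3.11 ± 0.29, and by 0.66 ± 0.19 later in polysomal RNA, with -0.49 ± 0.19 in total RNA not called.

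Among the thioesterases, FaTA (AT3G25110_at), which prefers the oleoyl chain that SSI2 makes, fell late. It was at 6.37, 6.66 and 5.89 at 15 DAP, 5.16, 4.99 and 4.74 at 18 DAP and 5.29, 5.14 and 5.44 at 20 DAP in total RNA, and at 6.14, 6.28 and 6.22, 4.80, 4.52 and 3.93 and 3.50, 5.02 and 4.24 in polysomal RNA. All 15 DAP arrays lay above all later ones in each fraction, and FaTA fell by 1.02 ± 0.31 (limma adjusted p = 0.0294) and 1.95 ± 0.31 (3.88-fold; limma adjusted p = 0.000527). At 12 DAP its polysomal arrays were spread widely, at 4.95, 6.55 and 8.20, and the early differences of -0.26 ± 0.45 and -0.36 ± 0.67 were not called. The second thioesterase A gene, AT4G13050_at, fell early by 1.62 ± 0.33 and 2.26 ± 0.33 and was not called later. FATB (AT1G08510_at), which prefers saturated chains, was not called early, at -0.50 ± 0.31 and -0.06 ± 0.34, and rose by 0.47 ± 0.12 in total RNA from 15 to 20 DAP (limma adjusted p = 0.0153).

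At the exit of the pathway the acyl-CoA synthetases LACS9 and LACS8, which activate free fatty acids, moved in opposite directions. LACS9 (AT1G77590_at), known in the plastid envelope, was at 7.07, 7.66 and 7.59 at 12 DAP and 4.36, 3.78 and 4.44 at 15 DAP in total RNA, without overlap. It fell by 3.25 ± 0.35 (9.48-fold; limma adjusted p = 0.000135) and, in polysomal RNA, by 4.54 ± 0.45 (23.3-fold; limma adjusted p = 6.56e-05), with no call later.

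LACS8 (AT2G04350_at) was at 5.51, 5.53 and 4.97 at 12 DAP, 7.40, 7.17 and 6.74 at 15 DAP, 8.19, 8.16 and 7.95 at 18 DAP and 8.32, 7.87 and 8.07 at 20 DAP in total RNA. In polysomal RNA it was at 4.80, 4.17 and 4.66, 7.21, 7.36 and 7.12, 8.08, 7.996 and 8.25 and 8.22, 7.99 and 7.91. Each of the first 3 stages lay above the one before it without overlap, and 18 and 20 DAP overlapped. LACS8 rose by 1.77 ± 0.34 (3.41-fold; limma adjusted p = 0.00298) and 2.69 ± 0.31 (6.44-fold; limma adjusted p = 0.00014) from 12 to 15 DAP and by 0.98 ± 0.18 and 0.81 ± 0.18 from 15 to 20 DAP, and was the 1 member that rose at both steps in both fractions. After cyclic loess the early LACS8 differences shrank to 0.163 and 0.609 and were no longer called, while the later rises held.

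AT3G57280_at encodes FAX1, a fatty acid exporter of the plastid inner envelope. It was at 4.77, 4.36 and 4.89 at 12 DAP and 5.70, 6.04 and 5.79 at 15 DAP in polysomal RNA, without overlap, and rose by 1.17 ± 0.31 (limma adjusted p = 0.0082). In total RNA the 12 DAP arrays disagreed, at 5.68, 3.63 and 3.19, and the difference of 1.10 ± 0.59 was not called. After cyclic loess its polysomal difference was -0.0404, so this rise depends on the scaling.

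Genes were compared in 18 pairs by the difference of their log2 levels on the same arrays. Paired genes do like reactions, sit in the same complex or, for GPT1 and CUE1, bring different carbon compounds into the plastid. The differences were averaged over the total and polysomal array of each stage and number, with 3 values at 12 DAP and 9 later. The exact two-sided permutation test over the 220 arrangements can give no p below 0.00909. After Benjamini and Hochberg adjustment over the 18 pairs, 12 passed, and 11 of these had that smallest p and an adjusted p of 0.0149. The acyl-CoA synthetases parted most: LACS9 minus LACS8 went from 1.83 to 3.25 at 12 DAP and -4.95 to -3.30 at the later stages, a change of -6.73. ACP1 lost ground to ACP4 by 5.002 and to ACP3 by 4.79, and BCCP2 lost ground to AT3G56130 by 3.35 and to AT3G15690 by 3.44. In pyruvate dehydrogenase, LPD1 lost 2.71 to AT4G16155, PDH-E1 BETA lost 1.92 to AT2G34590 and LTA2 lost 1.57 to EMB3003. SSI2 gained 2.20 on AT3G02630 and 1.24 on AT5G16240, and GPT1 gained 2.34 on CUE1. AT5G10160 lost 1.36 to AT2G22230, with overlapping ranges and an exact permutation adjusted p of 0.0409. This pair passed in polysomal RNA alone, at -2.16 (exact permutation adjusted p = 0.0252), and not in total RNA alone, at -0.554 (exact permutation adjusted p = 0.468).

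The remaining 6 pairs did not pass. BCCP2 minus CAC1 ranged over 0.18 to 0.36 at 12 DAP and -1.12 to 0.83 at the later stages, and ACP5 minus ACP1 over -1.84 to -1.60 at 12 DAP and -4.06 to -0.38 at the later stages. PKP-BETA1 minus PKp3 changed by -0.80, FaTA minus AT4G13050 by 0.42, FaTA minus FATB by -1.22 and AT1G52670 minus BCCP2 by 1.06, with exact permutation adjusted p of 0.0629, 0.587, 0.109 and 0.109. The narrower spread of values on the 12 DAP arrays also narrows differences between genes there. After a second quantile normalization, which puts all arrays on a common spread, every pair that passed above passed again. LACS9 minus LACS8 then changed by -6.80 and ACP4 minus ACP1 by 4.11. The part of the narrower spread in the changes was not tested further.

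Polysomal RNA was then set against total RNA. On normalized arrays this is a level relative to the other transcripts of each fraction and not the share of a transcript that sits on ribosomes. At 12 DAP 7 of 44 members were higher in polysomal RNA and 0 lower, where 5.65% of all loci differed and 0.906% were higher. These were AT1G24360 at 2.80 ± 0.46 (6.96-fold; limma adjusted p = 0.00133), LTA2 at 2.03 ± 0.49, CAC2 at 1.98 ± 0.47, ENO1 at 1.97 ± 0.52, AT3G56130 at 1.93 ± 0.48, AT5G10160 at 1.91 ± 0.48 and AT4G16155 at 1.72 ± 0.47, the last 6 with limma adjusted p of 0.0177 to 0.0419. The median over the 44 was 0.91, against 0.11 over all loci. Related lists described below had like medians: 1.17 for other plastid glycolysis and carbon import, 1.03 for plastid membrane lipid desaturases and 0.86 for other long-chain acyl-CoA synthetases. It was 0.17 for other stearoyl-ACP desaturases, 0.66 for mitochondrial pyruvate dehydrogenase and 0.11 for mitochondrial ACP and lipoate genes. Leaving out 1 array of the 6 at a time cut the count to between 1 and 5, with 1 left without polysomal replicate 1.

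Over 15, 18 and 20 DAP together, 29 members differed between the fractions, where 52.7% of all loci did, with 22 higher in polysomal RNA (29.7% of all loci) and 7 lower (23%). The split depended on the scaling: median centring gave 29 higher and 4 lower and cyclic loess 9 higher and 10 lower, and over all loci the higher calls were 8257 of 14666 as deposited, 12224 of 16476 after median centring and 5438 of 11051 after cyclic loess. The AT1G24360 reductase was again highest in polysomal RNA, by 1.19 ± 0.21 (2.29-fold; limma adjusted p = 0.000267), followed by 2 BADC genes, AT3G56130 by 0.88 ± 0.17 and AT3G15690 by 0.78 ± 0.21. The 7 that were lower were the thioesterase AT4G13050 at -0.72 ± 0.14, LACS9 at -0.72 ± 0.20, the dehydratases AT2G22230 at -0.63 ± 0.18 and AT5G10160 at -0.51 ± 0.12, FaTA at -0.56 ± 0.18, ACP3 at -0.46 ± 0.15 and KASI at -0.42 ± 0.11. Limma adjusted p for these 7 lay between 0.00049 and 0.0195.

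**Figure D5:**
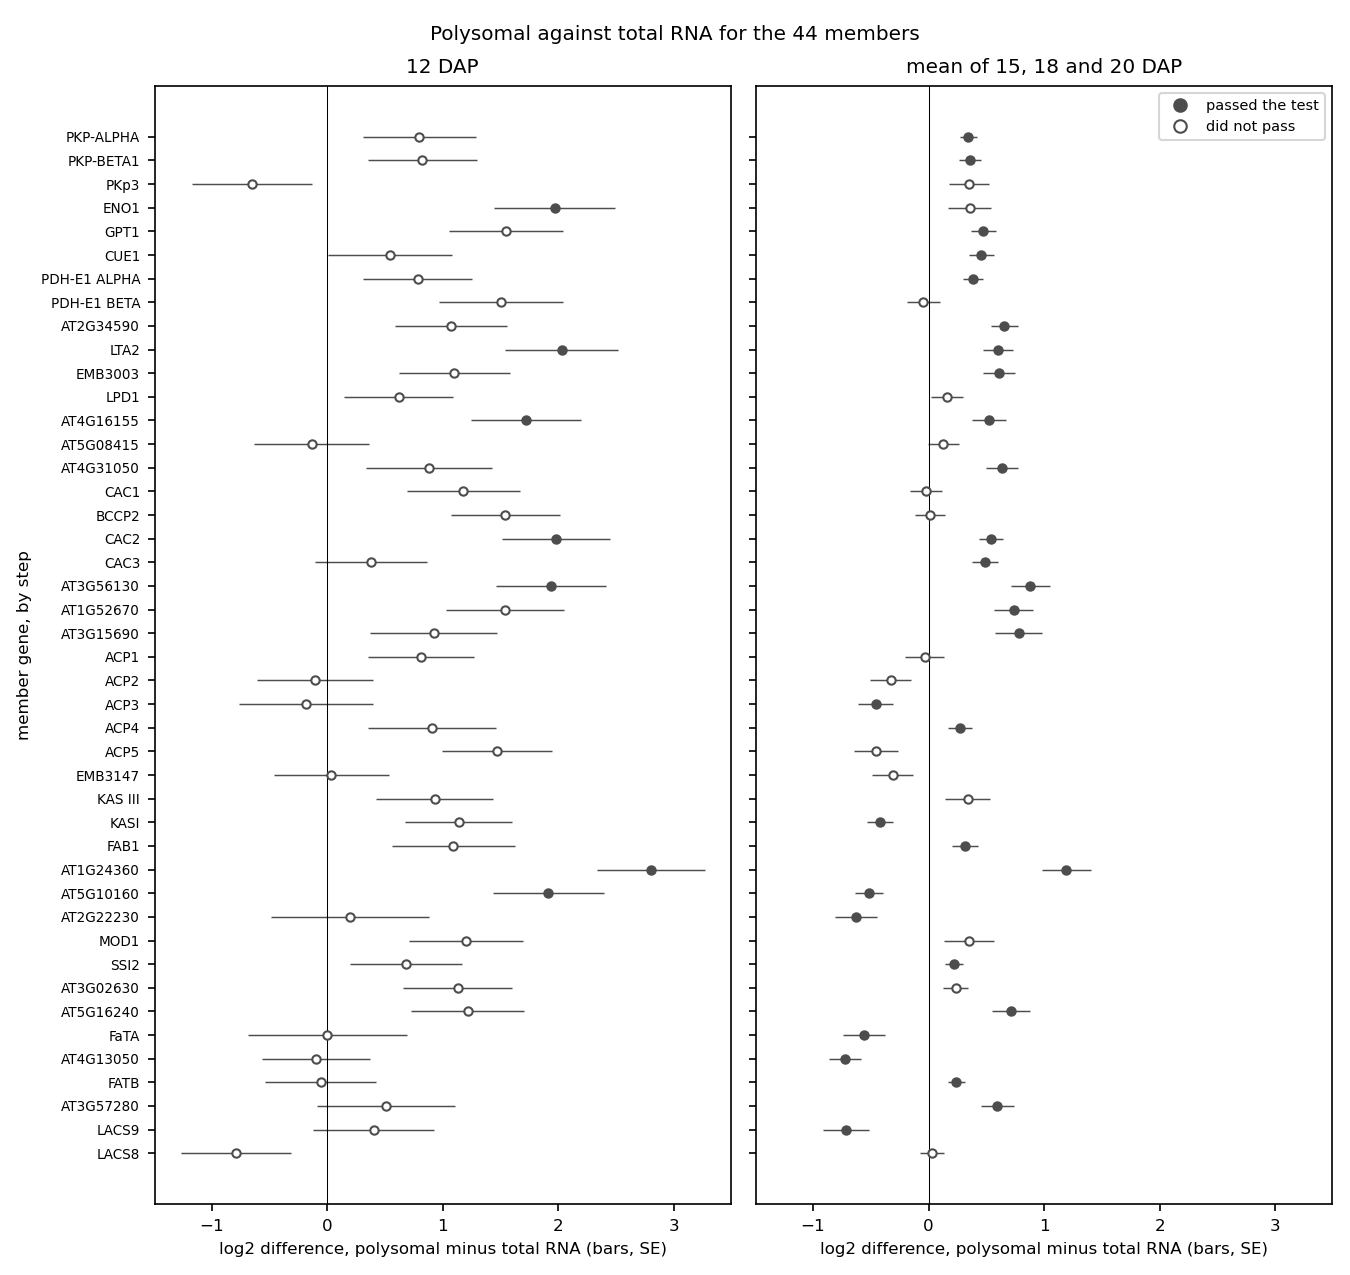
Polysomal minus total RNA, as a log2 difference with its SE, for each of the 44 genes at 12 DAP and over the mean of 15, 18 and 20 DAP. The 7 genes called at 12 DAP lie between 1.72 and 2.80, and the later differences lie between -0.72 and 1.19.

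Whether the gap between the fractions itself moved with stage was tested as an interaction. From 12 to 15 DAP 1 member passed, where 2.9% of all loci did and 0.895% in its direction. It was the dehydratase AT5G10160, whose polysomal to total difference dropped by 2.02 ± 0.50 (limma adjusted p = 0.0389). At 15 DAP this gene was near the median of all loci, at 3.80 against 3.92 in total RNA and 3.69 against 3.65 in polysomal RNA. ACP5, at -1.88 ± 0.49, and KASI, at -1.61 ± 0.43, had limma adjusted p of 0.05 and 0.0535 and did not pass. The AT5G10160 call was lost without any 1 of the 15 DAP arrays of either fraction or without polysomal replicate 1 of 12 DAP, and also with a replicate block, after median centring and after a second quantile normalization. From 15 to 20 DAP 0 members passed, and 0.0791% of all loci did, with a member median of -0.25.

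WRI1 itself was at 5.46, 6.75 and 7.03 at 12 DAP, 4.09, 4.41 and 5.18 at 15 DAP and 4.01, 3.52 and 3.32 at 20 DAP in total RNA, with the stages of 12 and 15 DAP apart. It fell by 1.85 ± 0.47 and 1.22 ± 0.31 from 12 to 15 DAP in total and polysomal RNA (limma adjusted p = 0.0119 and 0.00749) and by 0.94 ± 0.29 and 1.91 ± 0.29 from 15 to 20 DAP. Other plastid glycolysis and carbon import genes showed 7 of 16 lower and 2 higher in total RNA from 12 to 15 DAP, and 9 lower and 2 higher in polysomal RNA, against 19.4% of all loci lower and 20.5% higher in total RNA and 39.4% and 29.4% in polysomal RNA. The higher calls of that list went to 0 in both fractions after a second quantile normalization, with 8 and 9 lower, and after cyclic loess, with 10 and 12 lower. Of 7 other long-chain acyl-CoA synthetases 4 were called lower and 2 higher in each fraction, but in polysomal RNA 0 were higher and 3 lower after either of these scalings. The 4 other stearoyl-ACP desaturases showed 2 lower and 0 higher in each, though cyclic loess left 0 lower in total RNA.

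Markers of other seed and fruit tissues were counted over the same step, beside the same shares of all loci. Seed coat flavonoid markers showed 7 of 7 lower in total RNA and 5 of 7 in polysomal RNA, and their mean log2 level went from 7.04 to 7.59 on the 12 DAP total RNA arrays to 3.10 to 3.35 at 15 DAP. Mucilage markers showed 5 and 4 of 6 lower (6.53 to 6.96, then 4.04 to 4.19), and endosperm markers 3 of 4 lower and 1 higher in each fraction (5.69 to 6.44, then 4.49 to 4.66). Silique markers showed 3 and 5 of 5 lower (3.76 to 5.48, then 2.68 to 3.01). After a second quantile normalization and after cyclic loess the endosperm list had 2 lower in each fraction. The silique list had 2 lower in each fraction after the first and 1 after the second. The flavonoid list kept 5 of 7 lower and the mucilage list 4 or 5 of 6 lower in each fraction under both. Embryo markers showed 1 of 5 higher in total RNA and 0 called in polysomal RNA as deposited, and 5 of 5 lower in both after cyclic loess. The part of these tissues in the fall of the 44 genes was not tested.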

How the data were processed

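Total and polysomal RNA of Col-0 seeds was biotin-labelled and read on 24 one-colour arrays, in 8 groups of 3 that were taken from the labels. The deposited values are log2 levels made by the authors with RMA, per the submitters' processing notes, which give no version. RMA removes background, puts the arrays on a common scale and combines the probes of each locus, so a level is relative to the other transcripts on its array. The array design, which arrays were normalized together and the genome build are not given in the sources used here, so no coordinates are printed. Arrays give no count depth, and their number limits the precision. A separate culture or plant is not the unit: each replicate is a bulk of plants, and p-values measure the spread between such bulks.

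All 27827 loci were tested as deposited, without a filter, in R 4.3.3 with limma 3.58.1 (lmFit and eBayes), Benjamini-Hochberg adjusted over all loci at 0.05. Comparisons with 12 DAP used the compared groups alone and comparisons among later stages the 18 later arrays; those from 15 to 18 and from 18 to 20 DAP were added after the data were seen. The script was tested on simulated data. Symbols came from the RefSeq gene table of assembly TAIR10.1, which held 27241 of the loci and all 44 members.

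In each comparison the 3 largest called rises and falls among members were named, and both genes of each pair. Members outside that rule were named to show each step's spread, after their values were seen. Members, pairs, lists and tests were chosen with earlier results of these data known. A search of member promoters for the WRI1 binding element was planned and not run, since no promoter sequence was used here. The deviations of same-numbered arrays from their group means correlated at -0.0594 to 0.244 (median 0.0044) over 84 pairs of arrays, 7 of them over 0.1, and those of different number at -0.208 to 0.116 (median -0.0026) over 168 pairs, 2 of them over 0.1. Most same-numbered pairs were not over 0.1, but correlations over 0.1 were more frequent among them than among the others. What the numbers share was not tested. The main limma fits did not take numbers to pair samples, and counts with the number as a block are given below. The test of gene pairs did average the 2 fractions by stage and number.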

Additional observations from a re-analysis of the deposited data

Results flagged for a closer look

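The polysomal to total difference of AT5G10160, a hydroxyacyl-ACP dehydratase of fatty acid synthase, changed by -2.02 between 12 and 15 DAP, which the interaction test of fraction and stage picked out (limma adjusted p = 0.0389). No other member of the 44 passed this test between 12 and 15 DAP or between 15 and 20 DAP. The gene stood 1.91 higher in polysomal than in total RNA at 12 DAP and within the total RNA range at 15 DAP. At 15 DAP its mean was 3.80 in total RNA and 3.69 in polysomal RNA, where the median over all loci was 3.92 and 3.65. The part of this low level in the narrowed gap was not tested. The call was lost with the replicate number as a block, after median centring and after a second quantile normalization (limma adjusted p = 0.0605, 0.0573 and 0.116), and no member passed without polysomal replicate 1 of 12 DAP or without any 1 of the 15 DAP arrays.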

How the results depend on the processing

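Of 2456 single-gene values recomputed under 7 alternatives, 2268 kept their direction and call, 100 lost a call, 82 gained one and 6 turned direction, all 6 after cyclic loess: GPT1 from 12 to 15 DAP in total (-0.118) and polysomal RNA (-1.64), AT3G57280 in polysomal RNA (-0.0404), SSI2 in total RNA (-1.85), and the polysomal to total difference over 15 to 20 DAP of ACP4 (-0.00852) and LACS8 (-0.247). The narrow spread and weaker replicates of 12 DAP limit every comparison with that stage, and a single fit to all 24 arrays shares their error with the later ones. That fit gave 6 members changed in total RNA and 5 in polysomal RNA from 15 to 20 DAP, 4 and 6 from 15 to 18 DAP, 27 different between fractions at 12 DAP and 19 at 15 to 20 DAP, and 8 with a changed ratio from 12 to 15 DAP. Over all loci it called 1407 and 938 from 15 to 20 DAP, 722 and 742 from 15 to 18 DAP, 8750 between fractions at 12 DAP, 9623 later and 3645 changed ratios. Weights per stage gave 4 members at 12 DAP between fractions. A second quantile normalization gave 3 there, 17 later and 2 changed ratios, and it called 6865 and 5543 of all loci from 12 to 15 DAP, 843 between fractions at 12 DAP and 472 changed ratios. Cyclic loess gave 19 later and 5 changed ratios, with 4657 and 5487 of all loci called from 12 to 15 DAP and 355 changed ratios, and 2306 of 4768 loci called higher in total RNA from 15 to 20 DAP. Median centring gave 0 changed ratios, and leaving out dim loci, which kept 18551 loci and 43 members and called 12083 in polysomal RNA from 12 to 15 DAP, gave 3. Over these alternatives, 0 to 77 of all loci had a changed ratio from 15 to 20 DAP and 0 to 10 changed in total RNA from 18 to 20 DAP, with 0 members in each. For counts that moved, the cause was not tested. Replicate numbers were not taken to pair the samples in the main limma fits. With the number as a replicate block the ratio count went from 1 to 0, and the other members' counts stayed within 1.5 times (29, 33, 12, 12, 6, 29, 10 and 11). Leaving out 1 array at a time gave 26 to 31 and 29 to 35 members from 12 to 15 DAP in total and polysomal RNA, 9 to 13 and 7 to 10 from 15 to 20 DAP, 7 to 11 and 9 to 10 from 15 to 18 DAP, 1 to 5 between fractions at 12 DAP and 27 to 31 later, and 0 to 2 changed ratios. The polysomal count of 12 from 15 to 20 DAP dropped to 7 without polysomal replicate 3 of 15 DAP or replicate 2 of 20 DAP. The count of 7 at 12 DAP dropped to 1, 4 and 3 without polysomal replicates 1, 2 and 3 and to 2 without total replicate 2 or 3. The changed-ratio count went to 0 without polysomal replicate 1 of 12 DAP or any array of 15 DAP, and to 2 without polysomal replicate 2 or 3 or total replicate 1 of 12 DAP. Of the 18 pairs, 13 passed after a second quantile normalization, 11 in total RNA alone and 14 in polysomal RNA alone.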

Other observations

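Of 5 regulators upstream of WRI1, 3 were called lower and 1 higher from 12 to 15 DAP in each fraction, where 19.4% of all loci were lower and 20.5% higher in total RNA and 39.4% and 29.4% in polysomal RNA. In polysomal RNA 2 were lower and 0 higher after a second quantile normalization and after cyclic loess, and in total RNA 0 were higher after cyclic loess. NF-YB6, a subunit of a seed transcription factor complex, fell by 2.32 in total RNA and 4.06 in polysomal RNA (limma adjusted p = 0.00101 and 2.65e-05). ABI3, a master regulator of maturation, was at 6.79, 6.83 and 6.87 at 12 DAP and at 9.43, 9.52 and 9.67 at 15 DAP in total RNA, far apart, and rose by 2.71 (limma adjusted p = 0.000162), a difference that cyclic loess cut to 0.709 without a call. From 15 to 20 DAP 2 of the 5 fell in each fraction, where 7.7% of all loci fell in total RNA and 5.4% in polysomal RNA, and 0 rose.

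Biotin is the cofactor of the carboxylase, and BIO2, the biotin synthase, was at 6.48, 6.67 and 6.37 at 12 DAP and at 3.90, 4.27 and 4.09 at 15 DAP in total RNA. The stages were apart, and BIO2 fell by 2.42 in total RNA and 3.34 in polysomal RNA (limma adjusted p = 0.000344 and 5.11e-05), a fall that held under each scaling. The biotin list as a whole had 1 of 4 higher and 1 lower in total RNA, and 2 lower in polysomal RNA. Of all loci 20.5% were higher and 19.4% lower in total RNA, and 29.4% and 39.4% in polysomal RNA, so the biotin counts were near these shares. Plastid membrane lipid desaturases had 2 of 5 higher in total RNA, and 3 higher and 2 lower in polysomal RNA, where a second quantile normalization left 0 higher and 1 lower and cyclic loess 0 of either. FAD5, which acts on palmitoyl chains of plastid lipids, was at 2.07, 2.65 and 2.75 at 12 DAP and 6.62, 6.31 and 6.41 at 15 DAP in total RNA, far above, and rose by 3.96 (limma adjusted p = 4.21e-05). Of the cytosolic acetyl-CoA carboxylase ACC1 and the cytosolic enolase LOS2, ACC1 rose by 1.59 in total RNA and 1.63 in polysomal RNA, which cyclic loess turned to -0.122 and -0.517, and LOS2 fell by 1.41 in polysomal RNA.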
